A study of Mus musculus with 9 samples.

Results

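Lymphoid priming genes are genes of the B and T cell pathways that early blood progenitors begin to transcribe before they commit to a lineage. A set of 10 such genes (Dntt, Rag1, Rag2, Il7r, Satb1, Notch1, Cd27, Gpr183, Lax1 and Blnk) was read from a table of 43629 genes, in which each member was found by its Ensembl identifier. All 10 passed the filter on low counts, which left 15948 genes for testing. RNA came from mouse bone marrow cells that a bead kit had enriched for c-Kit (also called CD117), a growth factor receptor of early blood cells. There were 9 libraries in 3 genotypes of the C57BL/6 strain, with 3 libraries each. WT mice had the normal Cbfb gene, which encodes CBFβ, the non-DNA-binding partner of the Runx transcription factors. Cbfb+/MYH11 mice (MYH11 below) had 1 allele for the leukaemia fusion protein CBFβ-SMMHC, and Cbfb+/mDE mice (mDE below) had 1 allele for that fusion with an altered C-terminal multimerization domain. All groups, WT included, share treatment with pIpC, an RNA mimic that induces interferon and is often used to switch on Mx1-Cre. Age, the number of animals, and any Cre or promoter acting on the alleles are not given in the sources used here. No label says whether the libraries of a genotype stem from different animals, and the p-values therefore rest on the spread between libraries, which may be technical.

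In the lymphoid pathway, the receptor for interleukin-7 keeps early lymphoid progenitors alive, Notch1 directs them towards T cells, and the chromatin organiser Satb1 favours lymphoid output of stem cells. Rag1 and Rag2 together cut DNA at antigen receptor genes, and Dntt adds untemplated bases where the cut ends are joined. Cd27, Gpr183, Lax1 and Blnk are surface or signalling proteins of lymphocytes, and several of these genes are also active in dendritic and other myeloid cells.

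The libraries held 39300366 to 50073097 reads, and values below are normalised reads, the deposited counts after division by a size factor for each library. The members were thus read at depths from 54 reads (Rag2 in a WT library) to 7104 reads (Blnk in a MYH11 library). Kit was present in all genotypes, at 7504 ± 253 in WT, 7256 ± 329 in mDE and 3538 ± 321 in MYH11 (mean ± SD, n = 3), and was lower in MYH11 than in WT (limma adjusted p = 2.06e-06). Myh11, the fusion partner, stood at 7.02 ± 2.06, 37.9 ± 8.12 and 196 ± 21.3 in the same order, and Cbfb, of which every genotype keeps a normal allele, at 6867 ± 305, 5227 ± 481 and 6569 ± 299. Reads of 13 late neutrophil genes made up 10.8% to 12.8% of a WT library, 12.2% to 15.2% of an mDE library and 0.795% to 2.39% of a MYH11 library, so transcripts of maturing neutrophils were present in the selected cells. In such mixed samples, fewer cells of a type and less RNA per cell cannot be told apart.

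In MYH11 all 10 members differed from WT, in both directions. Rag1, Rag2, Dntt, Il7r, Cd27, Gpr183 and Blnk rose and Satb1, Notch1 and Lax1 fell (limma, Benjamini-Hochberg adjusted p from 7.53e-06 to 0.0224), and in each case the 3 MYH11 libraries lay outside the range of the 3 WT libraries. The 7 rises of 10 stand beside 32.0% of all tested genes called higher in this comparison, and the 3 falls beside 27.8% called lower, which is about the same share. Over all tested genes, 68.7% had groups that did not overlap. The median log2 difference of the members was 1.45, against 0.02 over all genes tested. In mDE only Dntt passed, as 1 of 10 called higher and 0 called lower where 0.821% and 0.420% of tested genes were called. At an unadjusted limma p under 0.05 stood 4 members, all higher, beside 3160 of all 15948 tested genes in either direction. edgeR called 1 member and DESeq2 3, all higher, beside 112 and 593 of all tested genes called higher by the same tests. All 10 differences were above 0, as were those of 52.9% of tested genes, with a median of 0.48 against 0.01 over all genes. Lax1 was at 0.01 and its sign turned under 6 of 21 alternatives, as that of Gpr183 did under 1, without mDE replicate 3 (log2 difference -0.06). For 4 members (Dntt, Il7r, Satb1 and Cd27) every mDE library lay above every WT library, which held for 13.9% of tested genes. Between MYH11 and mDE, 4 members were higher in MYH11 and 3 lower, beside 29.6% and 26.0% of tested genes, and the libraries of these 7 members did not overlap, as for 62.2% of tested genes. Dntt, Rag2 and Cd27 did not pass.

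**Figure D1:**
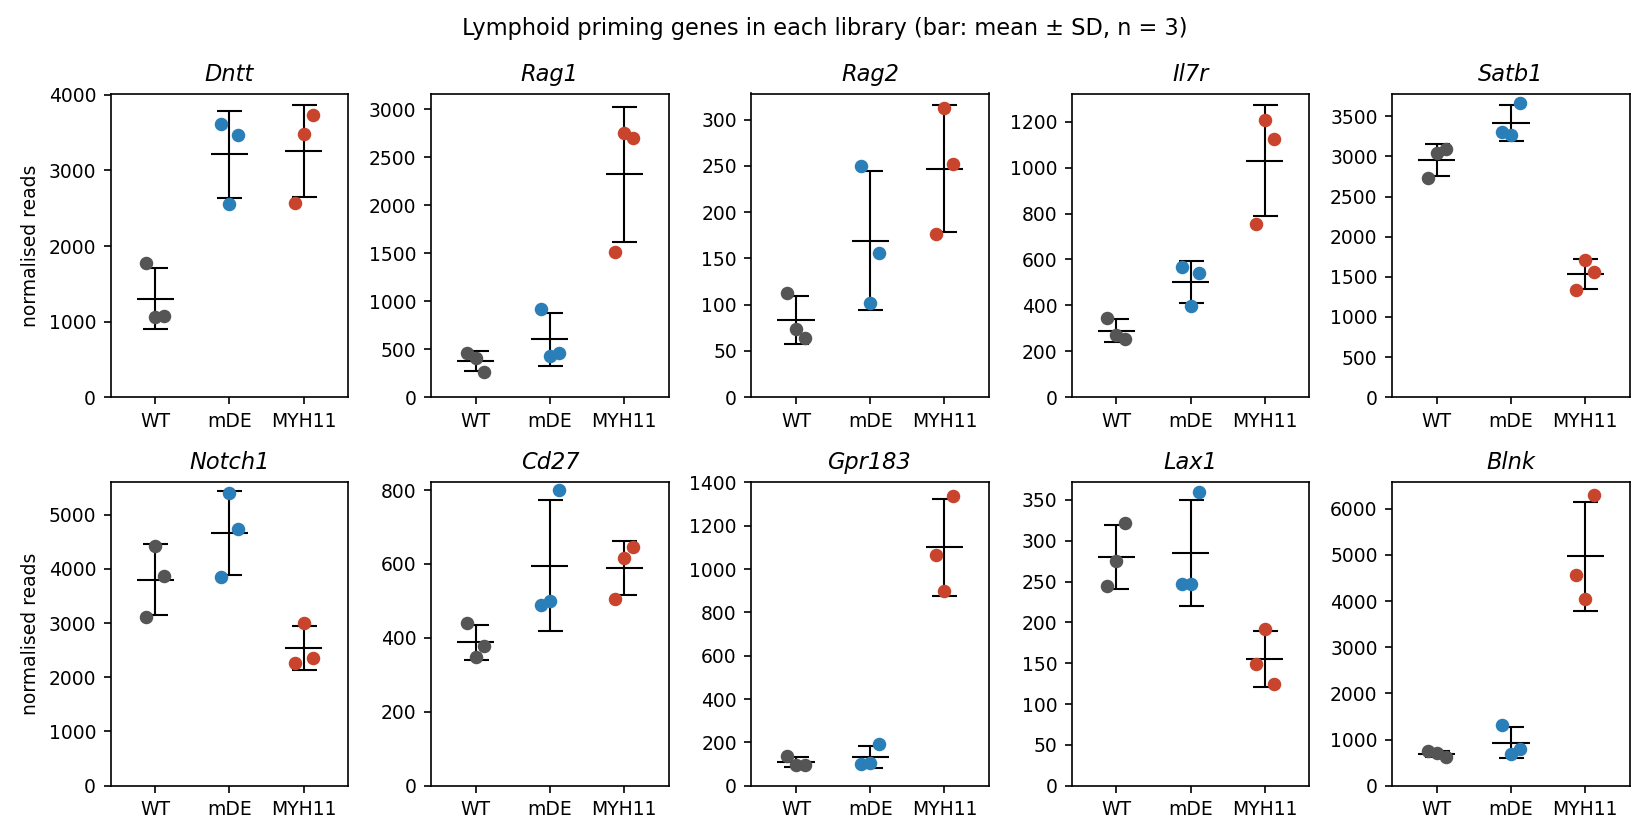
Normalised reads (vertical axis, from 0) of each lymphoid priming gene in the 3 WT, 3 mDE and 3 MYH11 libraries; points are libraries and bars the mean ± SD (n = 3). Dntt averaged 3214 ± 573 in mDE and 3258 ± 611 in MYH11, whereas Gpr183 and Blnk stood far above the other genotypes in MYH11, and Satb1, Notch1 and Lax1 were lowest there.

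Because the altered gene encodes a partner of the Runx factors, the promoters of the members were searched for the letters TGTGGT and TGCGGT, forms of the Runx core motif, on both strands. RefSeq promoter windows (GRCm38.p6) run from 250 bases before to 50 bases after a start, and 15 windows matched all 10 members by symbol. TGTGGT was found for 3 members, Rag1, Il7r and Lax1, in 4 of the 15 windows, and TGCGGT for none; 22.4% of all 32851 windows hold one or the other. The windows of these 3 members are shown with that of Gpr183, the member with the largest difference, as a window without a match. Capitals mark TGTGGT or its reverse complement.
Rag1, chr2:101649483-101649782, minus strand: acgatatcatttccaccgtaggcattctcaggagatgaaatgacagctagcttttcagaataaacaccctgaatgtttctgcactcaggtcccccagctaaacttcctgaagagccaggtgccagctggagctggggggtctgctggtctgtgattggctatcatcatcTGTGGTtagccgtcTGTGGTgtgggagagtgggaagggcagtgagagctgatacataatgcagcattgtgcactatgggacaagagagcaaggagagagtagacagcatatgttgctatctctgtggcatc
Il7r, chr15:9529827-9530126, minus strand: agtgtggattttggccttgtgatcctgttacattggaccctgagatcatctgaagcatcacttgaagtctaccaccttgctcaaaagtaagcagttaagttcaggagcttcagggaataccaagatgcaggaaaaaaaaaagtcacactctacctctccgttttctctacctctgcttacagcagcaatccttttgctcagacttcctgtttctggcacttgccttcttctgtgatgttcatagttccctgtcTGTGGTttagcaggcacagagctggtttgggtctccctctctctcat
Lax1, chr1:133690059-133690358, minus strand: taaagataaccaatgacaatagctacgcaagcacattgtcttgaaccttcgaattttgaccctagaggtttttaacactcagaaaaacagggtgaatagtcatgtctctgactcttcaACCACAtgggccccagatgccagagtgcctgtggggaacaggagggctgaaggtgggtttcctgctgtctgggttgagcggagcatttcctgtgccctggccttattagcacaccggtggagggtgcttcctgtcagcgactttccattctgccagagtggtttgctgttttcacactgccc
Gpr183, chr14:121965144-121965443, minus strand: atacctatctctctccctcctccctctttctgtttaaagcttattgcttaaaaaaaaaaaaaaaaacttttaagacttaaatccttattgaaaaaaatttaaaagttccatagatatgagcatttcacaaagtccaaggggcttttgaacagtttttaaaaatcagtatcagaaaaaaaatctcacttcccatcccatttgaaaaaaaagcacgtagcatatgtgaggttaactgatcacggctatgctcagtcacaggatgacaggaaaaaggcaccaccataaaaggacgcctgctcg
The Rag1 window has the motif at 2 places, which begin 81 and 67 bases before the start. In Il7r it begins 3 bases after the start, and in Lax1 it lies on the other strand. Within the printed Lax1 window it begins 132 bases before the transcription start, and it also falls within a second, overlapping Lax1 window. Rag1 and Il7r were higher in MYH11 and Lax1 was lower, so the letters were found in members of both directions. The E-box letters CAGCTG and CACCTG, of which CAGCTG is its own reverse complement, were found in windows of Rag1, Satb1 and Blnk (4 of 15 windows, against 32.9% of all windows). These matches describe letters in a window and show no binding.

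Among the recombination genes, Dntt (chr19:41029275-41059525, plus strand, GRCm38) encodes terminal deoxynucleotidyl transferase, the polymerase that adds bases without a template at antigen receptor joints. Its WT libraries held 1776, 1062 and 1075 normalised reads, its mDE libraries 3615, 2558 and 3468 and its MYH11 libraries 2568, 3477 and 3729.6. Every library of either knock-in genotype lay above all WT libraries, and the knock-in genotypes overlapped each other. Dntt rose 2.50-fold in MYH11 (log2 difference 1.35, SE 0.22, limma adjusted p = 0.000662) and 2.46-fold in mDE (log2 difference 1.33, SE 0.22, limma adjusted p = 0.0308). Between MYH11 and mDE the log2 difference was 0.02, with a 95% interval of -0.49 to 0.52 (limma adjusted p = 0.951). The call in mDE was lost without WT replicate 2 or 3 or mDE replicate 1 or 3 (limma adjusted p from 0.0586 to 0.121), while the log2 difference stayed at 1.20 or above in each of these fits.

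Rag1 (chr2:101638282-101649501, minus strand) encodes the DNA-cutting subunit of the recombinase. Its normalised reads were 461, 405 and 261 in WT, 916, 432 and 455 in mDE and 1513, 2755 and 2701 in MYH11. MYH11 stood clear of both other genotypes, and within mDE replicate 1 stood well above the others. The rise in MYH11 was 6.18-fold over WT (log2 difference 2.61, SE 0.34, limma adjusted p = 0.00015) and 3.86-fold over mDE (limma adjusted p = 0.000907), and mDE against WT did not pass (log2 difference 0.63, 95% interval -0.15 to 1.40, limma adjusted p = 0.341). Rag2 (chr2:101624718-101632529, plus strand) encodes the partner subunit, which reads a histone mark of active chromatin. Its normalised reads were 113, 73.9 and 63.4 in WT, 250.2, 102 and 155 in mDE and 176, 313 and 252 in MYH11. WT and MYH11 did not overlap, and mDE overlapped both. Rag2 rose 2.96-fold in MYH11 (log2 difference 1.56, SE 0.35, limma adjusted p = 0.00391), and neither mDE against WT (log2 difference 0.96, limma adjusted p = 0.185) nor MYH11 against mDE (log2 difference 0.60, limma adjusted p = 0.177) passed. Without mDE replicate 1, which had the most Rag1, Rag2 and Blnk reads of that genotype and the highest sum of B lineage markers in it, MYH11 against mDE passed for Rag2 (log2 difference 0.93, limma adjusted p = 0.0412).

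Rag1 and Rag2 lie on opposite strands with starts 24.8 kb apart. Per kb of annotated exon, Rag1 stood at 2.12 to 2.84 times the level of Rag2 in WT, 1.52 to 2.20 times in mDE and 4.45 to 5.56 times in MYH11. The MYH11 ratios lay above all 6 others. No test of this ratio was made, and with 3 libraries against 3 an exact two-sided permutation test cannot go below 0.1. Both genes lie within B230118H07Rik, a gene on the minus strand with 890.1 ± 91.2 normalised reads in WT and 315 ± 15.7 in MYH11, so it fell where the Rag genes rose (limma adjusted p = 2.42e-06). Whether counting used the strand is not given in the sources used here, and whether the exons of such genes overlap was not examined. How far overlapping genes shared reads was therefore not tested.

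Among the receptors, Il7r (chr15:9505788-9530176, minus strand) encodes the alpha chain of the interleukin-7 receptor, a defining protein of common lymphoid progenitors. The libraries read 346, 269.7 and 254 in WT, 568, 398 and 541 in mDE and 756, 1209 and 1126 in MYH11, and the 3 genotypes formed 3 steps with no overlap. The rise was 3.55-fold in MYH11 over WT (log2 difference 1.81, SE 0.21, limma adjusted p = 6.32e-05) and 2.05-fold in MYH11 over mDE (limma adjusted p = 0.00228). For mDE over WT the ratio was 1.73 (log2 difference 0.79, limma adjusted p = 0.0967), which did not pass, although the DESeq2 Wald test gave an adjusted p = 0.00996.

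Cd27 (chr6:125232622-125237010, minus strand) encodes a costimulatory receptor of the tumour necrosis factor family that is also found on multipotent progenitors. It was measured at 440.0, 347 and 377 in WT, 488, 500.1 and 799 in mDE and 505, 615 and 645 in MYH11. The knock-in genotypes overlapped each other and lay above WT, and mDE replicate 3 was the highest library. Cd27 rose 1.52-fold in MYH11 (log2 difference 0.60, SE 0.19, limma adjusted p = 0.0224), a call lost without WT replicate 2 or 3 or MYH11 replicate 2 or 3 (limma adjusted p from 0.0593 to 0.0763). In mDE the ratio was 1.53, with nearly the same log2 difference (0.59), and did not pass (limma adjusted p = 0.151; DESeq2 Wald adjusted p = 0.0474). Between MYH11 and mDE the log2 difference was 0.01 (95% interval -0.42 to 0.44, limma adjusted p = 0.959). Cd27 lies within Vamp1, on the opposite strand, which stood at 483 ± 4.27 in WT and 702 ± 98.9 in MYH11.

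Gpr183 (chr14:121952551-121965195, minus strand) encodes EBI2, a receptor for oxysterols that positions B cells, T cells and dendritic cells in lymphoid tissue. It was low in WT, at 138, 96.0 and 95.1, and in mDE, at 101, 106 and 193, and reached 1065, 897 and 1339 in MYH11. The lowest MYH11 library was above every library of both other genotypes. Of the 10 members Gpr183 had the largest rise, from 109.7 ± 24.5 in WT to 1100.0 ± 223 in MYH11 (log2 difference 3.32, SE 0.27, limma adjusted p = 7.53e-06), and it was 8.25-fold higher than in mDE (limma adjusted p = 1.32e-05). In mDE against WT the log2 difference was 0.24 (95% interval -0.36 to 0.84, limma adjusted p = 0.654). Gpr183 lies inside Ubac2, a gene of the other strand, which stood at 1488 ± 27.0, 1426 ± 118 and 1409 ± 51.8 in WT, mDE and MYH11 (limma adjusted p = 0.332 for MYH11 vs WT).

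Notch1 (chr2:26457903-26516663, minus strand) encodes the receptor that sets T cell fate. Reads were 3111, 4416 and 3862 in WT, 3856, 5395 and 4745 in mDE and 2257, 2997 and 2353 in MYH11. MYH11 lay below all other libraries, while WT and mDE overlapped. Notch1 fell in MYH11 against WT (log2 difference -0.58, SE 0.16, limma adjusted p = 0.0125), a call lost without WT replicate 2 (limma adjusted p = 0.0507), and it fell 1.84-fold against mDE (limma adjusted p = 0.00142). In mDE against WT the log2 difference was 0.30 (limma adjusted p = 0.341).

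Satb1 (chr17:51736187-51833290, minus strand) encodes a nuclear protein that folds chromatin and is needed for lymphoid output of stem cells. Its libraries held 2734, 3039.6 and 3098 in WT, 3308, 3274 and 3669 in mDE and 1340.2, 1706 and 1558 in MYH11, in 3 groups without overlap. It fell 1.93-fold in MYH11 against WT (log2 difference -0.95, SE 0.09, limma adjusted p = 2.41e-05) and 2.23-fold against mDE, the smallest adjusted p of any member in that comparison (limma adjusted p = 8.49e-06). In mDE the log2 difference to WT was 0.21 (limma adjusted p = 0.254).

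Of the adaptor proteins, Blnk (chr19:40928927-40994535, minus strand) links the B cell receptor kinase Syk to phospholipase C. It stood at 753, 705 and 611 in WT, 1323, 681 and 798 in mDE and 4568, 4046 and 6295 in MYH11. Every MYH11 library lay above the highest mDE library, which was again replicate 1. Blnk rose 7.21-fold over WT (log2 difference 2.83, SE 0.24, limma adjusted p = 1.03e-05) and 5.32-fold over mDE (limma adjusted p = 2.75e-05), and in mDE against WT the log2 difference was 0.38 (limma adjusted p = 0.402). Blnk is the next protein-coding gene to Dntt, on the opposite strand with starts 34.7 kb apart. Per kb of exon, Blnk was 0.162 to 0.254 of the Dntt level in WT, 0.0880 to 0.140 in mDE and 0.445 to 0.680 in MYH11, with the MYH11 ratios above and the mDE ratios below all WT ratios (not tested). On their outer sides, Zfp518a next to Blnk stood at 1903 ± 41.4 in WT and 1692 ± 108 in MYH11, and Opalin next to Dntt had no read in any library.

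Lax1 (chr1:133679091-133690108, minus strand) encodes a membrane adaptor that dampens antigen receptor signals in lymphocytes. The values were 244, 275 and 322 in WT, 247, 247 and 360.1 in mDE and 149, 192 and 125 in MYH11. Again MYH11 lay below the rest and the other genotypes overlapped. Lax1 fell 1.81-fold against WT (log2 difference -0.86, SE 0.20, limma adjusted p = 0.00509) and 1.83-fold against mDE (limma adjusted p = 0.00527), and in mDE against WT it differed by 0.01 on the log2 scale (95% interval -0.45 to 0.47, limma adjusted p = 0.989).

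**Figure D2:**
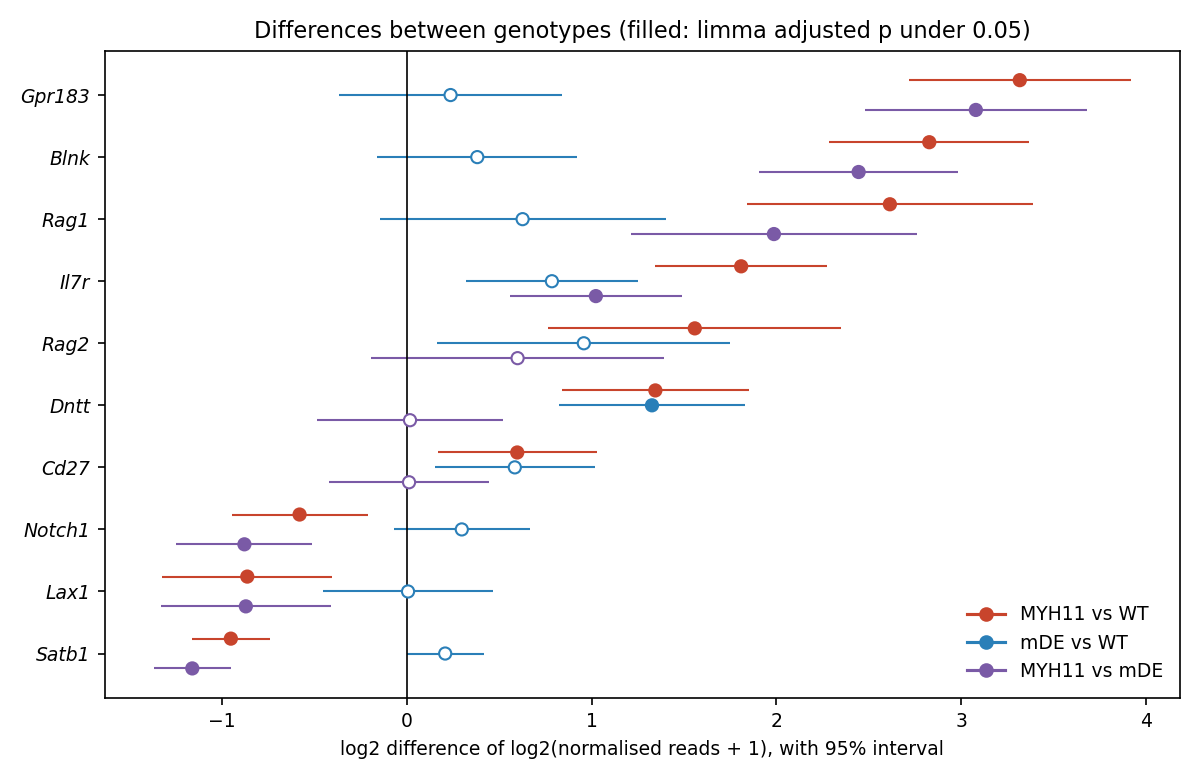
Log2 differences (horizontal axis) of the 10 members in each comparison, with 95% intervals that are not adjusted for the number of genes; filled points passed a limma adjusted p under 0.05. Dntt and Cd27 had MYH11 vs mDE differences near 0 (0.02 and 0.01), while Gpr183, Blnk, Rag1 and Il7r were higher in MYH11 than in mDE, and Notch1, Lax1 and Satb1 lower.

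Levels of different genes were compared per kb of the summed exons of all annotated transcripts. In WT, Dntt was the most abundant member at 569 ± 178 normalised reads per kb, followed by Notch1 at 267 ± 46.0, Cd27 at 167 ± 20.3, Satb1 at 155 ± 10.3, Lax1 at 121 ± 16.9 and Blnk at 115 ± 12.1. The libraries of Cd27 and Satb1 overlapped, as did those of Lax1 and Blnk. Lower still came Il7r at 62.2 ± 10.6, Rag1 at 56.9 ± 15.7, Gpr183 at 38.0 ± 8.49 and Rag2 at 24.4 ± 7.61, each overlapping the next. In MYH11, Dntt stayed first at 1422 ± 266 per kb, Blnk was second at 829 ± 196, and Gpr183 (381 ± 77.3) and Rag1 (352 ± 106) came next and overlapped. Notch1 stood below Cd27 and Il7r at 178 ± 28.3, overlapping Il7r, and Satb1 (80.7 ± 9.68), Rag2 (72.1 ± 20.0) and Lax1 (67.2 ± 14.7) were the lowest, each overlapping the next. In mDE the order of the first 4 members by mean was the one of WT, with Dntt at 1402 ± 249.8 per kb, Notch1 at 328 ± 54.3, Cd27 at 256 ± 75.6 and Satb1 at 179.6 ± 11.5. The mDE libraries of Notch1 and Cd27 overlapped, which those of WT did not.

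Genes of the members' wider pathways were called in both directions in MYH11, and in mDE Flt3 was the only one to pass with limma. The list counts stand beside 32.0% of all tested genes called higher and 27.8% called lower in MYH11 vs WT. Calls in both directions are thus not particular to these lists. Of 12 genes of interleukin-7 receptor partners and signalling, 11 were tested, and 8 rose and 0 fell in MYH11 with limma, edgeR and DESeq2 alike, with 0 falls at an unadjusted limma p under 0.05 (median log2 difference 0.56, against 0.02 over all genes). Cish, a feedback inhibitor induced by Stat5, went from 139 ± 42.0 in WT to 1475 ± 449.8, Pim1, a survival kinase, from 1799 ± 93.5 to 6725 ± 926, and Socs1, another feedback inhibitor, from 39.9 ± 11.2 to 212 ± 53.6 (limma adjusted p = 8.01e-06, 1.21e-05 and 6.26e-05). The shared gamma chain gene Il2rg was 1.91-fold higher in MYH11 than in mDE (limma adjusted p = 0.000104). These genes also serve other cytokine receptors, so the list is not particular to Il7r. In mDE limma and edgeR called 0 of 11 and DESeq2 3, all higher, with 5 higher at an unadjusted limma p under 0.05 and a median of 0.33. Over all 15948 tested genes in mDE vs WT, 3160 had an unadjusted limma p under 0.05, in either direction. Of the 15948, DESeq2 called 593 higher and 351 lower.

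In the V(D)J joining machinery, which repairs the breaks made by the Rag proteins in lymphocytes and other breaks in all cells, 3 of 13 rose and 6 fell in MYH11, with a median of -0.20. Atm, the kinase that senses breaks, rose 2.05-fold to 2346 ± 109. Paxx, an end-joining factor, fell 1.88-fold and Hmgb2, a DNA-bending protein that aids Rag cutting, fell 1.76-fold, to 40171 ± 2563 (limma adjusted p = 5.94e-06, 8.42e-06 and 6.9e-05). In mDE limma, edgeR and DESeq2 called 0 of 13, and 0 had an unadjusted limma p under 0.05.

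Of 23 Notch pathway genes 19 were tested, and 9 rose and 5 fell in MYH11 (median 0.23). While Notch1 fell, its paralogue Notch2 rose 1.92-fold, from 5478 ± 658 to 10500.1 ± 566 (limma adjusted p = 3.05e-05). Maml2, a coactivator of Notch, rose 6.19-fold and Lfng, which adds sugars to Notch receptors, 1.95-fold (limma adjusted p = 3.92e-06 and 5.94e-06), and Numb, a Notch inhibitor, was 2.36-fold lower in MYH11 than in mDE (limma adjusted p = 1.95e-05). In mDE limma and edgeR called 0 of 19 and DESeq2 2, both higher, with 5 higher at an unadjusted limma p under 0.05. The 5 stand beside 3160 of all 15948 tested genes at that unadjusted threshold, and the 2 beside 593 called higher by DESeq2.

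Among 15 early lymphoid transcription regulators, 7 rose and 5 fell in MYH11 (median 0.13). The 3 genes with the smallest adjusted p fell: Ets1, needed for lymphocyte development, 4.10-fold to 2369 ± 629.8, Id2, an inhibitor of E proteins, 3.03-fold to 1366 ± 254, and Ikzf1, which encodes Ikaros, 1.70-fold to 13237 ± 1255 (limma adjusted p = 4.82e-06, 1.4e-05 and 1.98e-05). Of 10 surface genes of lymphoid progenitors, 3 rose and 4 fell. Flt3, the cytokine receptor that marks lymphoid-primed progenitors, read 803, 564 and 631 in WT, 1107, 1440.0 and 1598 in mDE and 2138, 1782 and 2051 in MYH11, with no overlap between genotypes. It rose 2.99-fold in MYH11 and 2.07-fold in mDE (limma adjusted p = 2.86e-05 and 0.022), and the mDE call was lost without WT replicate 2 or 3 or mDE replicate 2 or 3 (limma adjusted p from 0.0652 to 0.0927). Cxcr4, a chemokine receptor, fell 2.41-fold and Ly6d, a marker of B-committed progenitors, 2.80-fold in MYH11 (limma adjusted p = 1.07e-05 and 8.68e-05), and Cd52 was 2.70-fold lower in MYH11 than in mDE.

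Genes around the adaptors also split. Of 10 B cell receptor signalling partners of Blnk, 3 rose and 6 fell in MYH11 (median -0.26), with 3 falls without WT replicate 2 or WT replicate 3 and 2 without MYH11 replicate 3. Plcg2, the phospholipase that Blnk recruits, fell 1.56-fold to 9440.4 ± 797, while Dapp1 rose 1.83-fold and the kinase gene Btk 1.22-fold (limma adjusted p = 0.000532, 0.000197 and 0.00113). Of 8 signalling adaptors listed with Lax1, some in the membrane and some, such as Grap2 and Lcp2, cytosolic, 7 were tested. Of these, 4 rose and 2 fell (median 0.73). Grap2 went from 208 ± 21.8 to 9048 ± 2367, Lat from 198 ± 4.12 to 1663 ± 439.8 and Lat2 from 606 ± 41.6 to 2055 ± 276 (limma adjusted p = 9.75e-08, 1.89e-06 and 2.06e-06), and these adaptors also serve T cells, platelets or mast cells. Of 7 ligands and partners of Cd27 and Gpr183, 5 were tested, and 3 rose and 2 fell; the falls numbered 1 without WT replicate 2 or 3 or MYH11 replicate 2 or 3. Hsd3b7 and Cyp7b1, enzymes that handle the oxysterol ligands of Gpr183, rose 3.74-fold and 18.2-fold, the latter from only 4.20 ± 1.53 normalised reads, and Traf5, which binds Cd27, rose 2.74-fold (limma adjusted p = 5.8e-07, 8.48e-05 and 7.34e-06). The other 2 genes, Ch25h and Cd70 (the ligand of Cd27), were too low to be tested in any genotype, with 0 to 2 and 0 to 1 reads per WT library. In mDE limma and edgeR called 0 genes of the adaptor, B cell receptor and ligand lists and of the transcription regulators, and DESeq2 called 1 adaptor and 2 regulators, all higher. At an unadjusted limma p under 0.05 stood 2 regulators, 1 adaptor and 1 ligand or partner gene, all higher, 1 ligand or partner gene that was lower, and 0 of the B cell receptor list. Over all 15948 tested genes, 3160 stood under that unadjusted p in mDE vs WT, and DESeq2 called 593 higher.

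**Figure D3:**
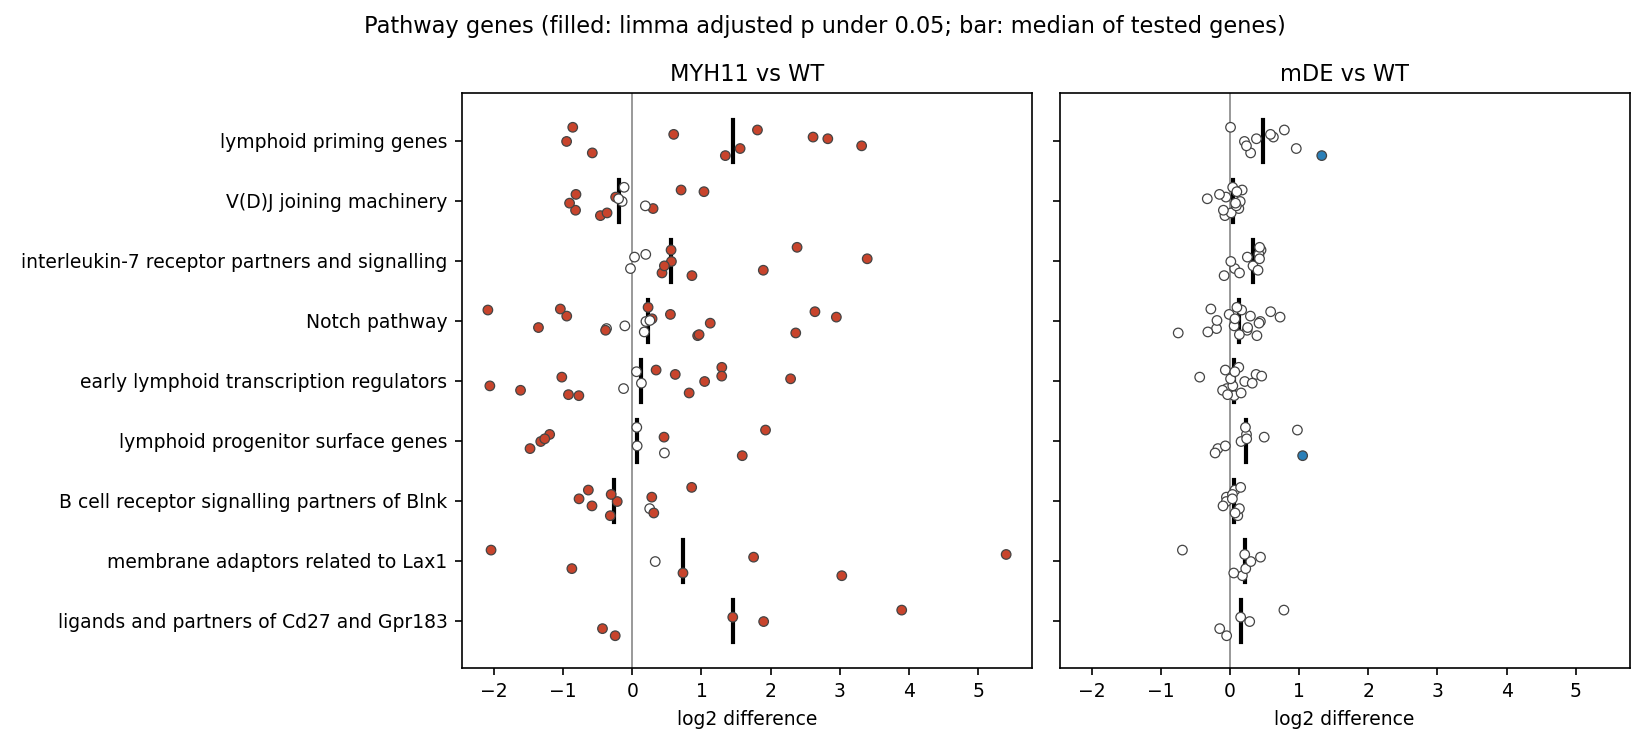
Log2 differences (horizontal axis) of the tested genes of each list in MYH11 vs WT and mDE vs WT, 1 point a gene, filled where the limma adjusted p was under 0.05, with a bar at the list's median. In MYH11 called genes lie on both sides of 0 in each list except interleukin-7 signalling, and in mDE the called genes are Dntt and Flt3. The list labelled as membrane adaptors also holds the cytosolic adaptors Grap2 and Lcp2.

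Markers of other cell types moved with some of these results. Calls among them stand beside 32.0% of tested genes called higher and 27.8% called lower in MYH11 vs WT. The shares were 0.821% and 0.420% in mDE vs WT, and 29.6% and 26.0% in MYH11 vs mDE. A list of 14 B lineage markers together took 170.3 to 205 CPM (a share of all reads of the library) in WT, 139 to 219.6 in mDE and 156 to 239 in MYH11, ranges that overlap, and 12 T cell markers took 26.0 to 39.0, 30.4 to 36.2 and 28.6 to 54.8. Of the 14 B lineage markers 1 (Ebf1) rose and 5 fell in MYH11, and their part in the members' differences was not tested. By contrast, 9 plasmacytoid dendritic cell markers took 169 to 221, 237 to 249 and 368 to 458 CPM, so the 3 genotypes did not overlap. Irf8 had the most reads of this list, at 4030 ± 826 in WT, 5903 ± 357 in mDE and 7891 ± 839 in MYH11. The sum therefore says little about markers with few reads, such as Siglech. Of the 8 tested genes of the list 2 rose in mDE, Siglech from 93.6 ± 31.4 to 314 ± 46.7 and Cox6a2 from 33.6 ± 2.47 to 98.9 ± 27.4 (limma adjusted p = 0.0154 and 0.0303), and in MYH11 7 rose and 1, Spib, fell. Calls of marker genes were not examined under the alternatives to the main fit. Between MYH11 and mDE 3 of the 8 were higher in MYH11, Tcf4 2.07-fold, Runx2 1.61-fold and Irf8 1.34-fold (limma adjusted p = 5.52e-06, 0.00121 and 0.0242), and the other 5, Siglech among them at 338 ± 31.7 in MYH11, did not pass. Mast cell and basophil markers, 12 genes, took 463 to 507 CPM in WT, 469 to 530.4 in mDE and 2828 to 4451 in MYH11, with Tpsab1 at 0 reads in every library. Of the 9 that were tested, 7 rose in MYH11 vs WT and 2, Mcpt8 and Hdc, fell. A list of 9 NK cell markers took 211 to 219, 144 to 163 and 62.3 to 118, 6 plasma cell markers 595 to 1061, 617 to 684 and 440.0 to 619, and 8 progenitor genes 8412 to 9896, 6645 to 8595 and 4463 to 6013. Nkg7 had the most reads of the NK list, at 8129 ± 472 in WT, 5490 ± 440 in mDE and 2076 ± 760 in MYH11. It did not pass in mDE vs WT (limma adjusted p = 0.17). Of the 9 NK cell markers, 0 rose, 4 fell and 5 were not called in MYH11 vs WT. The progenitor list holds Kit, Cd34, Myb and Spi1 and the granule enzyme genes Mpo, Elane, Ctsg and Prtn3. In MYH11 vs WT 1 of the 8 (Cd34) rose, 6 fell and 1 was not called. The part that shifts in the plasmacytoid dendritic cell, mast cell, NK cell and neutrophil marker sums had in the members' differences was not tested.

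**Figure D4:**
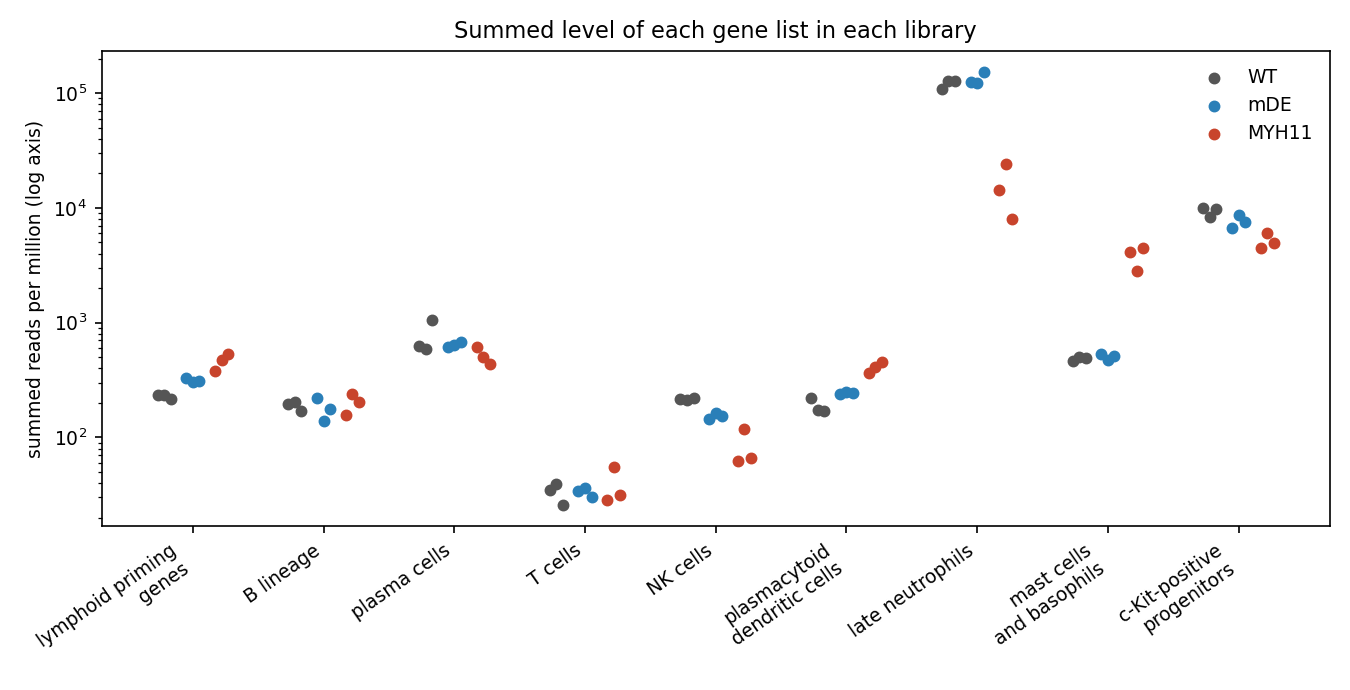
Summed CPM (log axis) of the 10 members and of each marker list in the 9 libraries, 1 point a library. The sum of the members was lowest in WT (217 to 235), between in mDE (304 to 330.2) and highest in MYH11 (382 to 534). The summed plasmacytoid dendritic cell markers, of which Irf8 had the most reads, had the same order, and a link between the sums was not tested. B lineage and T cell sums overlapped between genotypes.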

How the data were processed

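RNA sequencing of c-Kit-selected marrow was read from 1 deposited table of 43629 genes and 9 libraries. Per the submitters' processing notes, CASAVA 1.8.2, STAR 2.4, RSEM and DESeq2 were used on GRCm38, whose roles are not given in the sources used here. The deposited signal values are gene counts that the authors divided by 1 size factor per library: dividing a library's values by its lowest value above 0 gave whole numbers (tolerance 1e-06) for 100% of values, which are taken as reads. The authors' deposited log2 fold change and adjusted p-value columns belong to a comparison the header does not name and were not used. Symbols matched 97.33% of identifiers; coordinates and exon lengths are GENCODE M21 (GRCm38).

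Genes kept by filterByExpr (edgeR 4.0.16) on recovered reads, 15948, were fitted with limma-trend (limma 3.58.1, R 4.3.3) on log2(value + 1), with genotype alone as the term over all 9 libraries, with two-sided tests and Benjamini-Hochberg adjustment over all genes, threshold 0.05. Fold differences are ratios of group means. On simulated data (15948 genes) 100 genes were changed 2-fold and 100 were changed 4-fold. Of these changes 79% to 82% and 93% to 98% were recovered, and 4 to 8 unchanged genes were called. The changed genes were drawn only from those above a minimum of expected reads, and far fewer changed than were called in MYH11 vs WT. Recovery for low genes or under so broad a shift was therefore not tested.

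The members and lists were chosen with earlier results of these data known. Every member is named; from each pathway list, up to 3 called genes with the smallest adjusted p per comparison are named, and marker genes where a result turns on them. Alternatives were other scalings (TMM, DESeq2 1.42.0, upper quartile), filters, pseudocounts of 0.5 and 4, edgeR, DESeq2 and voom tests on recovered reads, fits of only the groups compared, a replicate block, and leaving out each library. Reads carry no molecular identifiers, so a floor of 3 reads covers counting error only.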

Additional observations from a re-analysis of the deposited data

How the results depend on the processing

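Of 630 values of the members under 21 alternatives in 3 comparisons, 617 stayed on their side of the threshold, 10 lost a call and 3 gained one. No value that was called changed sign, and 18 uncalled values did: Lax1 (6) and Gpr183 (1) in mDE vs WT, and Dntt (4) and Cd27 (7) in MYH11 vs mDE. The calls lost were of Dntt in mDE vs WT, and of Cd27 and Notch1 in MYH11 vs WT. The number of members called up in mDE vs WT was 1, but 3 with the DESeq2 Wald test (Il7r and Cd27 added), 0 with the replicate block, and 0 to 1 when a library was left out. Genes called in mDE vs WT numbered 198, and 123 with at least 5 CPM in 3 libraries, 944 with the DESeq2 Wald test, 188 with the edgeR quasi-likelihood test, 123 when only the groups compared were fitted, 101 with the replicate block and 32 to 262 when a library was left out; the cause was not tested. In the MYH11 comparisons the member counts stayed within 1.5 times, at 6 to 7 up and 2 to 3 down against WT and 4 to 5 up and 3 down against mDE. No member was called down in mDE vs WT under any alternative run, edgeR and DESeq2 included. Of 1008 counts of the pathway lists under alternatives 36 moved by over 1.5 times, and of 1694 values of named pathway genes 9 changed side of the threshold.

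Replicate numbers did not pair the libraries: same-number libraries of different genotypes had correlations of deviations from -0.15 to 0.12, and a library correlated best with its own number in 5 of 18 cases. With the replicate block the adjusted p of Dntt in mDE vs WT was 0.064 and of Flt3 0.0529; no call of a member in the MYH11 comparisons changed. All 10 members were tested, with the lowest count of a member in any library at 54 reads.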

Other observations

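Within the B lineage markers, whose sums overlapped between genotypes, several genes of mature B cells fell in MYH11 vs WT and Ebf1 rose. Ms4a1, which encodes the mature B cell antigen CD20, went from 836 ± 137 to 45.3 ± 10.3 normalised reads, Blk, a B cell kinase, from 282 ± 36.7 to 20.6 ± 5.10, Fcer2a, the low-affinity IgE receptor, from 172 ± 16.3 to 17.9 ± 8.28 and Cr2, a complement receptor, from 83.5 ± 15.7 to 8.49 ± 4.44 (limma adjusted p from 1.53e-06 to 0.000301). Cd22 also fell, and Ebf1, a transcription factor of early B cells, rose from 398 ± 46.9 to 961 ± 215 (limma adjusted p = 0.00706 and 0.00203). The surrogate light chain genes Vpreb1 and Igll1, active beside the Rag genes in early B cells, were at 479.6 ± 62.8 and 715 ± 110.0 in WT and at 385 ± 104 and 723 ± 213 in MYH11, and neither passed (limma adjusted p = 0.384 and 0.972). These genes were picked from the list after their values were seen.

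Genes next to Notch1 moved in the opposite direction to it. They were picked from the neighbours of all members after the values were seen, and 32.0% of all tested genes were called higher in MYH11 vs WT. Egfl7, the nearest protein-coding gene beyond Notch1, was at 458 ± 59.5 in WT and 1431 ± 182 in MYH11 (limma adjusted p = 3.71e-06), a rise where Notch1 fell, and Sec16a on its other side rose as well, from 3874 ± 353 to 5325 ± 145 (limma adjusted p = 0.000456).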
